A study of Homo sapiens with 2 samples.

Results

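The C/EBP genes encode transcription factors named for binding to CCAAT boxes and enhancer elements. Of the 21225 genes listed in both libraries, 5 were chosen by gene name, CEBPA, CEBPB, CEBPD, CEBPG and CEBPZ, and all 5 had a mean above 1 FPKM (fragments relative to the length of the transcript and the depth of the library). The measured FPKM of both libraries were known when the family was chosen, among them the low CEBPA value, so the members' own values are a description and carry no test. RNA came from Huh7, a human hepatoma line, either with a control shRNA (1 library) or with an shRNA against the repressor E2F6 (1 library). The labels name no vector, time after transfection or clone. E2F6 itself was at 2.54 FPKM under control shRNA and at 0.997 FPKM under E2F6 shRNA, 39.3% of the control with a counting interval of 25.8 to 59.3%. The interval rests on 97 and 33 fragments, estimated with the mean length of 12 annotated transcripts. The difference of E2F6 in log2(FPKM + 1) was -0.82, short of the size of 1 used below to call a gene.

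The factors C/EBP alpha, beta, delta and gamma share a basic region that contacts DNA and a leucine zipper through which they pair with each other and with other bZIP proteins. In liver, C/EBP alpha is known for driving the genes of the differentiated hepatocyte and for restraining proliferation, whereas C/EBP beta and delta are known for the acute phase response. C/EBP gamma lacks a strong activation domain and pairs with ATF4 in the stress response. CEBPZ shares the name but has no bZIP domain. Its yeast counterpart, Noc1, acts in the assembly of the large ribosomal subunit.

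Promoter sequence was read from the RefSeq table (GRCh38.p14) for 4 of the 5 genes, CEBPA, CEBPB, CEBPG and CEBPZ, with 1 start each for CEBPA and CEBPZ and 2 starts each for CEBPB and CEBPG. The 250 bases before 1 start of each gene are shown, 5′ to 3′ on the gene's strand, to set CEBPA, the gene with the lowest difference, beside its relatives. For CEBPB the second start listed was used and for CEBPG the first, since these held the matches. Capitals mark matches to any motif searched.
CEBPA, chr19:33302535-33302784, minus strand: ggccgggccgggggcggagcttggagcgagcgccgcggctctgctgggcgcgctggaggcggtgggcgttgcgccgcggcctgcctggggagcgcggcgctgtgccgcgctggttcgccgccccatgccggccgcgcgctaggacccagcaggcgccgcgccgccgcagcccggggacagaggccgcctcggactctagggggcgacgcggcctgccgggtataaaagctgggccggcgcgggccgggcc
CEBPZ, chr2:37231597-37231846, minus strand: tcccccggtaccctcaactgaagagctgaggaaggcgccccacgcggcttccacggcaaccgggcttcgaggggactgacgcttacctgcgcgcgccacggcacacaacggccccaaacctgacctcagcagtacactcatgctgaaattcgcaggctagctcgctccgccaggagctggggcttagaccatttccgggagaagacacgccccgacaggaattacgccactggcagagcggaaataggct
CEBPG, chr19:33373459-33373708, plus strand: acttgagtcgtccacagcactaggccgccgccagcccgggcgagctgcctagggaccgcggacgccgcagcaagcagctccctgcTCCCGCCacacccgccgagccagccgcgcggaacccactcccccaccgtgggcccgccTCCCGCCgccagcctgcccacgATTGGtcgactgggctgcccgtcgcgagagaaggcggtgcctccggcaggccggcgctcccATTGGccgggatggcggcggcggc
CEBPB, chr20:50190580-50190829, plus strand: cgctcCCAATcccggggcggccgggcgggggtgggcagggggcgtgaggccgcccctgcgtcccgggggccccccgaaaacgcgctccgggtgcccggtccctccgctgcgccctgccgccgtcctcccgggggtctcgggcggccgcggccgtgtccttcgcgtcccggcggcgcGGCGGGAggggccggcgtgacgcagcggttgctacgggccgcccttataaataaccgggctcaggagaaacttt

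The motifs were searched on both strands. TTGCGCAA and the looser TTGCNNAA stood for C/EBP factors. GCGGGAA stood for E2F factors, as did the overlapping form GGCGGGA and the longer TTTGGCGC. CACGTG stood for E-box factors, and CCAAT is the box bound by NF-Y. The former pair of E2F motifs share 6 letters, and TTGCGCAA is a case of TTGCNNAA. The CEBPG window held GGCGGGA at 165 to 159 and at 107 to 101 bases before the start, both on the opposite strand, and CCAAT at 85 to 81 and at 24 to 20 bases, also on the opposite strand. The CEBPB window held GGCGGGA at 74 to 68 bases and CCAAT at 245 to 241 bases before the start. None of these letters were found in the CEBPA and CEBPZ windows, or in the windows of the other CEBPB and CEBPG starts. Over 35116 promoter windows of the same length, the share with a match was 13.5% for GGCGGGA, 5.52% for GCGGGAA, 0.55% for TTTGGCGC, 0.131% for TTGCGCAA, 9.05% for TTGCNNAA, 6.34% for CACGTG and 32% for CCAAT. A match is a run of letters and was not tested as a binding site. The GC content of the windows was 81.2% for CEBPA, 62.8% for CEBPZ, 76% for CEBPG and 77.6% for CEBPB.

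CEBPA, the hepatocyte factor, was at 202 FPKM under control shRNA (95% counting interval 198 to 206 FPKM) and at 67.8 FPKM under E2F6 shRNA (65.2 to 70.4 FPKM). It is transcribed from 1 exon as 1 annotated transcript of 2631 bases, and at this length the values came to 9109 and 2626 fragments, each within 0.01 of a whole number. The ratio of levels was 33.6% of the control (32.1 to 35.05%), and the difference in log2(FPKM + 1) was -1.56. All differences below are on this scale, E2F6 shRNA minus control shRNA. Intervals cover counting error only. With 1 library a group, no difference has a replicate check. In a bulk library, fewer cells that hold a transcript and less transcript per cell cannot be told apart.

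CEBPB, which encodes the interleukin-6 responsive family member, was at 57.03 FPKM under control shRNA and 52.4 FPKM under E2F6 shRNA, from 1912 and 1509 fragments. Its ratio was 91.9% of the control (85.8 to 98.3%), a difference of -0.12. CEBPD, the other acute phase member, was at 25.4 and 24.5 FPKM, from 948 and 785 fragments. The ratio of CEBPD was 96.4% (87.6 to 106%), an interval that includes equal levels. CEBPB and CEBPD were thus listed at close to their control level, and like CEBPA each has 1 exon and 1 annotated transcript.

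CEBPG, the partner of ATF4, was at 27.7 FPKM under control shRNA and at 21.8 FPKM under E2F6 shRNA. The ratio was 78.8% (73.3 to 84.6%), a difference of -0.33. CEBPZ, the ribosome assembly gene, was at 8.78 and 4.24 FPKM, 48.3% of the control (37.7 to 61.6%), a difference of -0.90. For CEBPG and CEBPZ, with 2 and 3 annotated transcripts, the length behind the values is not known, so fragments were estimated with the mean transcript length, at 1888 and 1278 for CEBPG and 231 and 96 for CEBPZ. Each of the 5 genes was lower under E2F6 shRNA, by amounts from -0.05 in CEBPD to -1.56 in CEBPA.

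**Figure D1:**
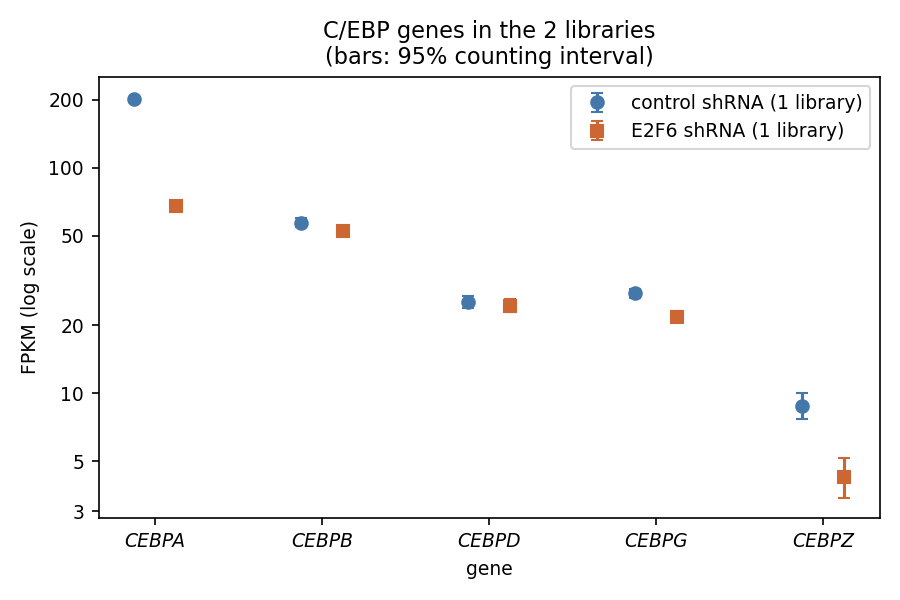
Level of each C/EBP gene (FPKM, log scale) under control shRNA (circles) and the E2F6 shRNA library (squares), 1 library a group, with bars for the 95% counting interval. CEBPA lies at 202 and 67.8 FPKM and CEBPZ at 8.78 and 4.24 FPKM. The libraries lie closer together for CEBPB (57.03 and 52.4 FPKM), CEBPD (25.4 and 24.5 FPKM) and CEBPG (27.7 and 21.8 FPKM).

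Genes were called by size where the difference reached 1 in either direction and the mean reached 1 FPKM. This rule took 1 of the 5 genes as lower, CEBPA, and none as higher. Over all 11574 genes with that mean, the rule took 239 as lower, 2.06%, and 135 as higher, 1.17%. Since CEBPA was chosen with its value known, nothing is read from this count. Of these genes, 48 had a lower difference than CEBPA, 322 than CEBPZ, 2474 than CEBPG, 4393 than CEBPB and 5151 than CEBPD. At a 1.5-fold threshold CEBPZ passed as well, where 9.33% of all genes were lower.

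**Figure D2:**
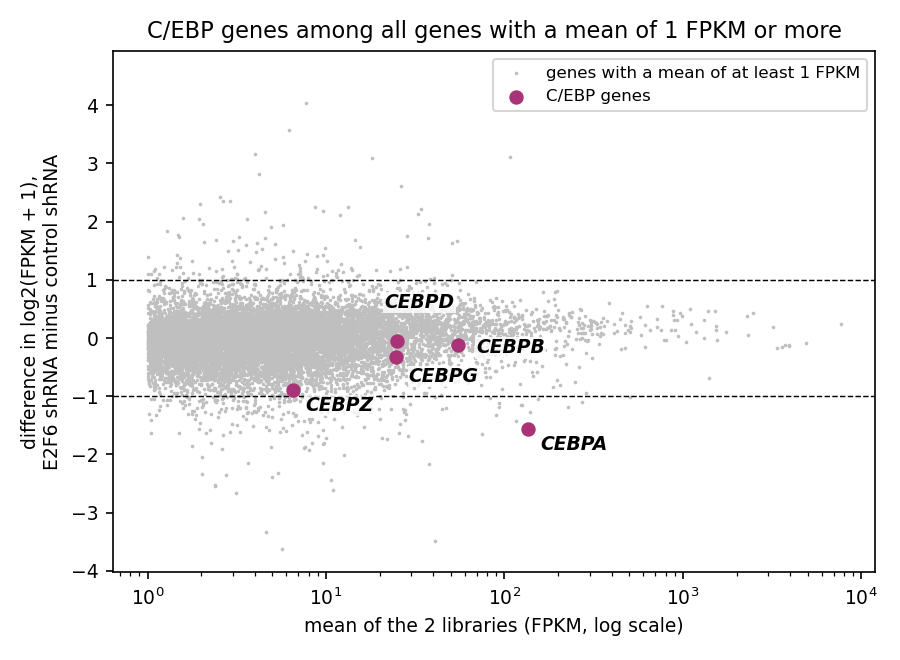
Difference in log2(FPKM + 1), E2F6 shRNA minus control shRNA, against the mean of both libraries (FPKM, log scale) for 11574 genes (grey) and the C/EBP genes (purple), with dashed lines at the rule of size. CEBPA at -1.56 lies below the lower line, and CEBPZ at -0.90 lies just above it.

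Of 292 genes with a mean level of at least 100 FPKM, 9 were lower, CEBPA among them, or 3.08% against 2.06% over all genes. The median difference of the 292 genes was 0.16. CEBPA ranked 134 by level among all genes of the control library and 484 under E2F6 shRNA. CEBPB moved from rank 542 to 648, CEBPD from 1364 to 1432, CEBPG from 1236 to 1601 and CEBPZ from 3715 to 6257.

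The make-up of the family differed with CEBPA. The FPKM of the 4 bZIP genes summed to 312 in the control and 166 under E2F6 shRNA. CEBPA made up 64.7% of that sum in the control and 40.7% under E2F6 shRNA, while CEBPB made up 18.3% and 31.5%. The level of CEBPA stood at 3.54 times that of CEBPB in the control and at 1.29 times under E2F6 shRNA, a 2.74-fold lower ratio (2.53 to 2.97, from the counting error of all 4 values). Such a ratio within a library does not depend on a single scaling factor between the libraries. A correction for the GC content of transcripts can change it where the genes differ in GC content. CEBPA had 65.9% and CEBPG 41.9%. Against CEBPD the ratio was 2.87-fold lower (2.59 to 3.19) and against CEBPG 2.35-fold lower (2.16 to 2.55).

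In order of level, CEBPA was first and CEBPB second in both libraries, and CEBPZ was last. CEBPG was above CEBPD in the control and below it under E2F6 shRNA. The counting intervals of CEBPG and CEBPD overlapped in both, at 26.5 to 28.98 FPKM against 23.8 to 27.1 FPKM under control shRNA and at 20.7 to 23.1 FPKM against 22.8 to 26.3 FPKM under E2F6 shRNA. The ratio within a library had an interval that left out equal levels by little, 1.09 (1.01 to 1.18) for CEBPG over CEBPD under control shRNA and 1.12 (1.03 to 1.23) for CEBPD over CEBPG under E2F6 shRNA. These intervals take the mean transcript length of CEBPG as given. The change of order was not kept once the trend of differences on GC content, described below, was removed. The difference was then -0.06 for CEBPG and -0.17 for CEBPD. The intervals of the other neighbours in the order lay farther from 1, the nearest being CEBPA over CEBPB under E2F6 shRNA at 1.29 (1.21 to 1.38). CEBPE, a granulocyte member of the family, was listed at 0.188 and 0.0437 FPKM, from 5 and 1 fragments. The interval of its ratio, 0.00492 to 2.08, includes equal levels.

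Base composition parted the members as well. The transcripts of CEBPA, CEBPB and CEBPD had GC contents of 65.9%, 66.2% and 70.02%, above 98.1%, 98.2% and 99.7% of 9900 protein-coding genes, whereas those of CEBPG and CEBPZ had 41.9% and 39.1%. Across protein-coding genes, GC-rich transcripts tended to be higher under E2F6 shRNA. Of 1490 protein-coding genes with a GC content of at least 60%, 10 were lower by the rule, 0.671%, and the median difference was 0.16. With the trend on GC content removed, the difference of CEBPA was -1.69, that of CEBPB -0.25 and that of CEBPD -0.17. The correction brought CEBPZ to -0.51 and CEBPG to -0.06, so the CEBPZ value depended on it and that of CEBPG came near 0.

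**Figure D3:**
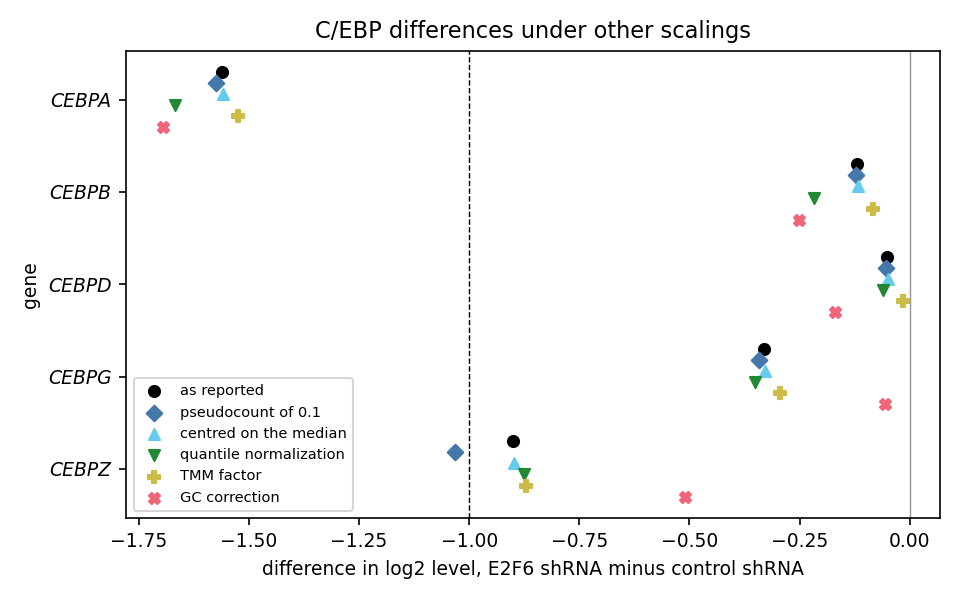
Difference in log2 level for each C/EBP gene as reported and under 5 other ways of scaling, with the dashed line at the rule of size. CEBPA stays between -1.69 and -1.53, and CEBPZ runs from -1.03 with a pseudocount of 0.1 to -0.51 with the GC correction.

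CEBPA, CEBPB and CEBPD have no intron. Of 171 protein-coding genes with 1 exon and a mean level of 1 FPKM or more, 7 were lower by the rule, 4.09%, and the median difference was 0.03. Among the 49 such genes at a mean of at least 20 FPKM, CEBPA had the second lowest difference after MAGEF1, CEBPB stood at place 20 and CEBPD at place 25.

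The genes around the members were listed next, with distances from GENCODE release 29 on GRCh38. CEBPA and CEBPG lie on chromosome 19 on opposite strands, 70.8 kb apart. Between CEBPA and its neighbour on the opposite strand, CEBPA-AS1, lie 0.293 kb with no shared exon base. CEBPA-AS1 was at 4.19 FPKM under control shRNA and 4.08 FPKM under E2F6 shRNA, 97.2% of the control (76.6 to 123%), while CEBPA was at 33.6%. The antisense gene CTD-2540B15.7, whose 482 exon bases all lie within the exon of CEBPA, was at 3.27 and 0.986 FPKM, from 27 and 7 fragments, a ratio of 30.2% (11.1 to 71.03%). Whether reads were counted by strand was not given in the sources used here, so reads of CTD-2540B15.7 and CEBPA cannot be told apart. The same holds for CTD-2540B15.11, which overlaps 25.05% of the exon bases of CEBPA and was at 0.354 FPKM under control shRNA and listed at 0 under E2F6 shRNA.

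Other genes within 100 kb of CEBPA did not pass the rule. The amino acid transporter gene SLC7A10 was at 15.6 and 13.4 FPKM, the receptor gene LRP3 at 7.88 and 6.45 FPKM, the non-coding gene CTD-2540B15.13 at 25.7 and 24.9 FPKM, and the dipeptidase gene PEPD, also the nearest gene to CEBPG, at 17.9 and 23.05 FPKM. By CEBPB on chromosome 20, TMEM189 was at 4.89 and 7.35 FPKM, its read-through with UBE2V1 at 48.7 and 61.8 FPKM, and UBE2V1 at 11.8 and 12.1 FPKM. These values are uncertain, since the 3 genes share exons. CEBPB-AS1, which overlaps 11.8% of the exon bases of CEBPB, was at 0.022 and 0.0513 FPKM, from 1 and 2 fragments. By CEBPD on chromosome 8, the repair gene SPIDR was at 2.49 and 1.93 FPKM and PRKDC, the catalytic subunit of the DNA-dependent protein kinase, at 56.4 and 56.05 FPKM.

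Around CEBPZ on chromosome 2 each neighbour with a mean level of 1 FPKM or more was lower, where 50.3% of all genes were. None passed the rule. The transcripts of these neighbours had GC contents from 39.9% to 44.5%, and the values given are not corrected for GC content. CEBPZOS, on the opposite strand, overlaps 9.67% of the exon bases of CEBPZ and was at 6.15 and 5.46 FPKM. NDUFAF7, a complex I assembly gene that shares 2.29% of these bases, was at 2.1 and 1.53 FPKM. The kinase gene PRKD3 was at 3.38 and 1.97 FPKM, and EIF2AK2, which encodes the kinase PKR, at 4.04 and 2.16 FPKM. The ratios had intervals of 66.4 to 118% for CEBPZOS, 42.4 to 120% for NDUFAF7, 42.5 to 78.97% for PRKD3 and 40.8 to 70.04% for EIF2AK2, so the former pair included equal levels.

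Of 47 other bZIP genes listed, all were measured and 32 had a mean level of 1 FPKM or more. By the rule 2 of these were lower, 6.25% against 2.06% over all genes, and 0 higher, against 1.17%. The median difference was -0.00, as over all genes, and 17 of 32 lay below 0, against 50.3% of all genes. The lower ones were MAFF, a small Maf protein gene without an activation domain, at 3.85 and 0.614 FPKM (6.27-fold lower, 3.76 to 10.5), and BACH1, a repressor of heme and antioxidant genes, at 5.27 and 1.94 FPKM (2.72-fold lower, 1.91 to 4.05). BACH1 was at -0.83 after the GC correction, short of the rule. Among the 51 bZIP genes with the 4 members counted in, CEBPA had the highest level in the control, ahead of ATF4 at 178 FPKM. In the E2F6 shRNA library ATF4 was first at 203 FPKM and CEBPA second, followed by JUND at 53.2 FPKM and CEBPB. Of the 36 at a mean level of 1 FPKM or more, MAFF alone had a lower difference than CEBPA. The factor NFIL3 was at 28.2 and 15.5 FPKM, and the partner of C/EBP factors DDIT3 (CHOP) at 1.82 and 1.93 FPKM.

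**Figure D4:**
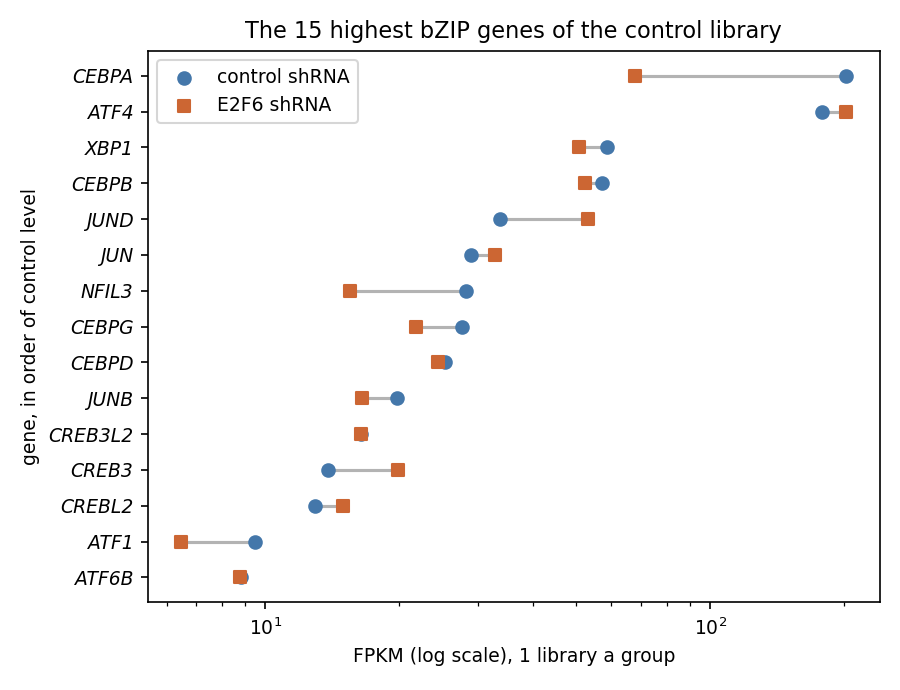
Levels (FPKM, log scale) of the 15 highest bZIP genes of the control library under control shRNA (circles) and the E2F6 shRNA library (squares), 1 library a group, joined by lines. CEBPA has the longest line, from 202 to 67.8 FPKM, while ATF4 goes from 178 to 203 FPKM and JUND from 33.6 to 53.2 FPKM.

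Of 10 factors that control C/EBP protein turnover, 8 had a mean level of 1 FPKM or more and none passed the rule, against 2.06% lower and 1.17% higher over all genes. Their median difference was -0.27, but it was -0.06 over the 7 with a mean of 5 FPKM or more and -0.17 after the GC correction. Tribbles proteins carry C/EBP alpha to the ubiquitin ligase COP1. TRIB1 was at 8.62 and 5.29 FPKM and the ligase gene, listed as RFWD2, at 6.09 and 6.61 FPKM. TRIB2, under the minimum mean, was at 1.44 and 0.17 FPKM. Above it the lowest difference was that of TRIB3 at -0.65 and the highest that of SIAH2 at 0.38. Interleukin-6 receptor, JAK and STAT3 signalling is known to induce CEBPB and CEBPD. Of its 10 genes listed, 8 passed the minimum mean, and all 8 of these had differences below 0, against 50.3% of all genes. With the TMM factor or under quantile normalization 7 of 8 were below 0. The median was -0.17, or -0.29 after the GC correction, and the feedback inhibitor SOCS3 passed the rule, where 2.06% of all genes were lower, at 8.31 and 3.36 FPKM (2.48-fold lower, 1.89 to 3.22). STAT3 was at 7.92 and 7.85 FPKM.

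Of 19 liver genes known as C/EBP alpha targets, 15 were measured and 9 had a mean level of 1 FPKM or more. By the rule 4 of the 9 were lower, against 2.06% of all genes, and 0 higher. Differences below 0 were found in 8 of the 9, against 50.3% of all genes, with a median of -0.50 against -0.00. Over all 15 measured, 11 were below 0 and the median was -0.15. After the GC correction 8 of the 9 were still below 0, the median was -0.33 and 3 were lower by the rule. The urea cycle gene ARG1 was at 16.5 FPKM under control shRNA and 5.72 FPKM under E2F6 shRNA (2.89-fold lower, 2.23 to 3.84). The hepcidin gene HAMP was 4.69-fold lower (3.71 to 5.997), the lipoprotein gene APOB 2.29-fold lower (2.25 to 2.33) and the albumin gene ALB 2.23-fold lower (2.09 to 2.38). ALB was at -0.83 after the GC correction, short of the rule. The others lay between -0.50 for UGP2 and 0.29 for TTR, with SERPINA1 at 151 and 139 FPKM and TF at 254 and 223 FPKM. All gene lists here were written with earlier results of these libraries known, and members of this list and the next are also named in them. None of the lists is independent evidence of a direction.

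Of 19 genes in a list of acute phase genes and relatives of them, 18 were measured and 17 had a mean level of 1 FPKM or more. SAA4 and A2M were counted as relatives. All 17 had differences below 0, against 50.3% of all genes, with a median of -0.57, and 3 were lower by the rule, against 2.06%. With the TMM factor 16 of 17 were below 0, under quantile normalization 16 of 16 that then passed the minimum, and after the GC correction 15 of 17. The lower ones were ORM1, 4.73-fold (3.90 to 5.83), ORM2, 3.59-fold (3.03 to 4.27), and SAA4, 9.71-fold (5.09 to 20.8). ORM1 and ORM2 are near copies, and SAA4 shares exons with a read-through gene, so these values are uncertain. The fibrinogen chain gene FGB was at 183 and 121 FPKM, complement C3 at 122 and 88.2 FPKM, and the inhibitor A2M at 252 and 249 FPKM.

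Of 15 genes that C/EBP factors drive in myeloid cells, 7 were measured and 3 had a mean level of 1 FPKM or more. By the rule 2 of the 3 were lower, against 2.06% of all genes. S100A9 was 12.9-fold lower (9.67 to 17.5), and CSF3R, the granulocyte colony-stimulating factor receptor and a textbook C/EBP alpha target, was at 4.41 and 1.57 FPKM (2.80-fold lower, 2.001 to 3.99). The lysozyme gene LYZ was at 240 and 133 FPKM, a difference of -0.85. Of 10 myeloid cell markers 3 were measured, with levels that summed to 2.20 FPKM under control shRNA and 2.07 FPKM under E2F6 shRNA. ITGAM was listed at 0 in the control and at 0.172 FPKM under E2F6 shRNA, CD14 at 0.424 and 0.159 FPKM and CD68 at 1.78 and 1.74 FPKM.

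**Figure D5:**
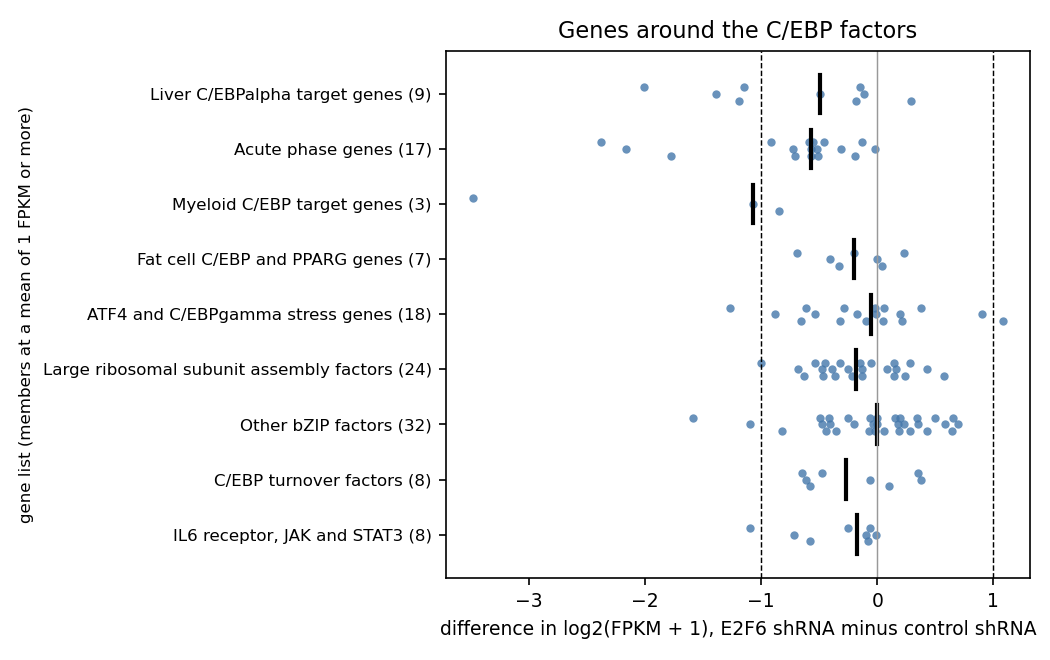
Differences in log2(FPKM + 1), E2F6 shRNA minus control shRNA, of the members of 9 gene lists with a mean level of 1 FPKM or more (points, number in brackets), with medians as black bars and the rule of size as dashed lines. The genes of the acute phase list, which includes relatives of such genes, lie below 0 in 17 of 17 cases (median -0.57). The other bZIP factors lie on both sides (median -0.00).

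Of 18 stress genes known to be driven by ATF4 with or without C/EBP gamma, each with a mean level of 1 FPKM or more, 1 was higher, 1 lower and 16 not past the rule, against 1.17% higher and 2.06% lower over all genes. The median was -0.06, or -0.17 after the GC correction. The amino acid transporter gene SLC7A5 was at 32.1 and 69.3 FPKM and SLC7A11, which encodes a cystine transporter, at 5.56 and 1.73 FPKM. Both fell short of the rule after the GC correction, at 0.93 and -0.86. Of 24 assembly factors of the large ribosomal subunit, 16 had differences below 0, against 50.3% of all genes, with a median of -0.18, or -0.11 after the GC correction. By the rule 1 was lower, 4.17% against 2.06% of all genes, RSL24D1 at 27.03 and 13 FPKM. RSL24D1 was at -1.002 as reported, at the edge of the rule, and at -0.72 after the GC correction, and it also fell short with the TMM factor and under quantile normalization. NOC3L was at 10.5 and 6.38 FPKM, and NOC2L at 37.7 and 41.9 FPKM.

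The libraries had the markers of hepatoma cells. All 12 hepatocyte and hepatoma markers had a mean level of 1 FPKM or more, with the alpha-fetoprotein gene AFP at 1721 and 1064 FPKM. By the rule 1 of the 12 was lower, ALB, 8.33% against 2.06% over all genes. HNF4A, at 4.56 and 15.3 FPKM, was the 1 higher, 8.33% against 1.17%. The median difference was -0.15, and 8 of 12 lay below 0, against 50.3% of all genes. ALB fell short of the rule after the GC correction. The summed level of 7 fibroblast and stellate cell markers, of 10 listed, was 42.1 and 63.1 FPKM, with ACTA2 listed at 0 in the control, and that of 4 fat cell markers, of 7, was 2.51 and 1.72 FPKM, with LIPE listed at 0 in the control and PLIN1 at 0 under E2F6 shRNA. The part of these markers in the C/EBP values was not tested.

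Genes nearest to each member in both libraries were found by the distance over log2(FPKM + 1) in these 2 libraries. For CEBPA the nearest protein-coding genes were the chemokine gene CCL20 (distance 0.25), AHSG (0.29) and the connexin gene GJA1 (0.29), and 4 genes lay within a distance of 0.5. Within that distance of CEBPB, CEBPD, CEBPG and CEBPZ lay 235, 509, 406 and 441 genes. The nearest was NUCKS1 for CEBPB, RPL23A for CEBPD, PPA1 for CEBPG and TPR for CEBPZ.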

How the data were processed

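RNA-seq was analysed from 2 libraries of Huh7 cells, 1 a group. The authors deposited 1 value per gene and library, taken here as FPKM, though the column headers do not name the unit. In genes with 1 transcript the value times the length came in whole steps. Within 0.01 of a whole number were 97.9% of 5452 values under control shRNA and 97.9% of 5162 under E2F6 shRNA. Such steps come with any count divided by length, so they cannot tell FPKM from other units of that kind. Taken as FPKM, the steps implied totals of 17139208 and 14724837 reads or fragments. Per the submitters' processing notes, the tools were HISAT2 2.0.4 and StringTie 1.3.0 and the build GRCh37, with no roles or settings. Of 21227 rows a table, 2 were left out as not usable.

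Fragments were estimated from FPKM and the mean transcript length of GENCODE release 29. Ratios have exact conditional binomial 95% intervals, ratios of ratios have normal intervals on the log scale, and levels have exact Poisson intervals. Differences are log2(FPKM + 1), with no test, since each group has 1 library. Called means that the difference reached 1 in either direction and the mean reached 1 FPKM. The members and the 15 lists (236 entries, 206 measured) were chosen with earlier results of these data known. Genes were named by a rule: members, E2F6, the nearest genes by pattern, neighbours within 100 kb, and list genes past the rule of size or at the extremes; other list genes named as examples, CEBPE, the family shares and ratios, the bZIP order, the classes by level, GC content and exon number, and the CCAAT motif were chosen after their values were seen. A planned comparison of protein sequences was not made. The search for the steps, the rule of size and the ratio intervals were tested on simulated data with counting error only. The other procedures were not tested in this way. Intervals came from scipy 1.17.1, the GC trend from statsmodels 0.14.6, tables from pandas 2.3.3 with numpy 2.4.6 and figures from matplotlib 3.10.9, in Python 3.11.15.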

Additional observations from a re-analysis of the deposited data

How the results depend on the processing

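Values were recomputed with a pseudocount of 0.1, without a minimum, with a minimum mean of 5 FPKM, with median centring, quantile normalization, a TMM factor, a 1.5-fold threshold, protein-coding genes alone, a lowess correction on GC content with and without genes of 1 exon in the trend, and the longest transcript behind the fragments. Each of the 5 C/EBP genes kept a difference below 0 under every alternative run on it, and CEBPA stayed past the rule of size (-1.69 to -1.53). CEBPD came as near to 0 as -0.02 with the TMM factor. CEBPG came to -0.05 with the GC correction that left genes of 1 exon out of the trend. CEBPZ passed it with a pseudocount of 0.1 (-1.03) and at the 1.5-fold threshold (-0.90), and the GC correction moved it to -0.51. With the longest transcript the ratio intervals of CEBPA, CEBPB, CEBPG and CEBPZ stayed below 1, and that of CEBPD included 1, as reported. Over all genes, 135 were higher and 239 lower. A pseudocount of 0.1 gave 269 and 522, a minimum of 5 FPKM, which leaves fewer genes, gave 67 and 128, and the 1.5-fold threshold gave 585 and 1080. The lists whose median changed sign were the CCAAT box and METTL3 list (0.052 and 0.053 under the GC corrections), translation control (0.054 and 0.056 under these) and other bZIP factors (0.031 with no minimum, 0.037 under quantile normalization and 0.030 with the TMM factor), and the myeloid cell markers, whose median rests on CD68 alone (-0.02 as reported, 0.0625 under quantile normalization and 0.00167 with the TMM factor). The cause was not tested. Depth limits genes with few fragments, such as CEBPE, CEBPB-AS1, CTD-2540B15.7 and CTD-2540B15.11. No paired analysis was possible because only 1 library stands for each shRNA.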

Other observations

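Of 16 genes that C/EBP factors and PPARG drive in fat cells, 12 were measured and 7 passed the minimum mean of 1 FPKM, none past the rule of size, against 2.06% lower and 1.17% higher over all genes. The median difference was -0.20, or -0.12 over the 12 measured. PPARG, the partner of C/EBP alpha in fat cell differentiation, was at 13.6 FPKM under control shRNA and 16.1 FPKM under E2F6 shRNA, a difference of 0.23 that was the highest of the list. The lowest was that of KLF15 at -0.69.

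Of 13 genes that bear on the translation of C/EBP isoforms, 1 was lower by the rule, CALR, which encodes the chaperone calreticulin, 2.15-fold (2.05 to 2.25), against 2.06% of all genes, and the median difference was -0.16, which the GC correction turned to 0.05. The initiation factor gene EIF4E was at 2.28 and 1.43 FPKM and the kinase gene MTOR at 14.6 and 18.8 FPKM. Of the 6 genes of the CCAAT box factor NF-Y and of the METTL3 methyltransferase complex, none passed the rule, METTL14 being lowest at -0.62 and NFYC highest at 0.42.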
